A study of Homo sapiens with 4 samples.

Results

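The regions described here are the CTCF peaks on human chromosome 19, outside the chromosome's ends and the surroundings of its centromere. A peak was a member when its summit lay on chromosome 19 between 2.0 and 19.6 Mb (the short arm window) or between 32.7 and 57.1 Mb (the long arm window) in GRCh37, together 42 Mb. By this rule, 2350 of the 33868 peaks in 4 lists were members, and merging the lists gave 872 member regions of 13962 in all. The lists came from CTCF chromatin immunoprecipitation followed by sequencing of K562, an established human erythroleukaemia line. For 4 hours the cells were exposed to 10 µM of either aclarubicin or daunorubicin, and each drug had 2 biological replicates. Untreated cells were not analysed here, and values under one drug are set beside those under the other.

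CTCF is a zinc-finger protein that binds a long DNA motif and stops loop extrusion by cohesin, so that its sites mark many anchors of chromatin loops and borders of domains. It also binds near many promoters. Chromosome 19 is known for its high gene content and its large clusters of zinc-finger genes. Both drugs are anthracyclines, which insert into DNA and can displace histones. Daunorubicin carries a single amino sugar and traps topoisomerase II on broken DNA, whereas aclarubicin carries a longer sugar chain and is not known for such breaks.

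The 4 lists held between 5886 and 10711 peaks. Their relative depth, solved from the deposited values with a formula assumed for the peak caller, lay between 0.814 and 1.04 with aclarubicin replicate 1 set to 1. A comparison of the drugs rested on 2 against 2 libraries, for which an exact permutation test cannot give a two-sided p below 0.333. A comparison of chromosome 19 with the 21 other autosomes within each of the 4 libraries was tested by exact sign flips, which cannot give a p below 0.125. Neither exact test could therefore pass 0.05, and the size of a difference between drugs is given beside the replicate spread. The 95% intervals of differences between drugs come from the pooled SD with 2 degrees of freedom and assume normal errors, which 2 libraries per drug cannot check. All intervals of shares are 95% Wilson intervals, which cover counting error only and treat neighbouring peaks as independent.

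The label of a gene-dense chromosome was checked against gene counts. In RefSeq's gene table for GRCh38.p14, used only for the chromosome of each gene, chromosome 19 had 1451 protein-coding genes, or 24.5 per Mb of its GRCh37 length. The other autosomes had between 2.93 per Mb (chromosome 13) and 14.4 per Mb (chromosome 17). Chromosome 19 was thus the densest of the 22 autosomes in genes.

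CTCF peaks were also densest on chromosome 19 in every library. The windows held 710 and 731 peaks under aclarubicin (replicates 1 and 2) and 444 and 465 peaks under daunorubicin. Per Mb, these were 16.9 and 17.4 peaks under aclarubicin and 10.6 and 11.1 peaks under daunorubicin. The other autosomes together had 3.41 and 3.42 peaks per Mb under aclarubicin and 1.87 and 2.12 under daunorubicin. The density was 5.22-fold higher on chromosome 19, a log2 difference of 2.38 ± 0.08 (SD, n = 4 libraries), higher in 4 of 4 libraries (exact sign-flip permutation p = 0.125). Here the windows were set against the whole length of the other autosomes. Over all of chromosome 19 the log2 difference was 2.07. With ends and centromere surroundings left out of the other autosomes too, it was 2.38. Chromosome 17, the next densest autosome, reached 8.02 and 8.49 peaks per Mb under aclarubicin and 4.72 and 4.93 under daunorubicin. Across the 22 autosomes, merged regions per Mb followed protein-coding genes per Mb with a Spearman's rho of 0.971, and without chromosome 19 with 0.966. This correlation is a description over chromosomes, all read from the same 4 libraries. For chromosome 19 it sets regions of the windows against genes of the whole chromosome.

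**Figure D1:**
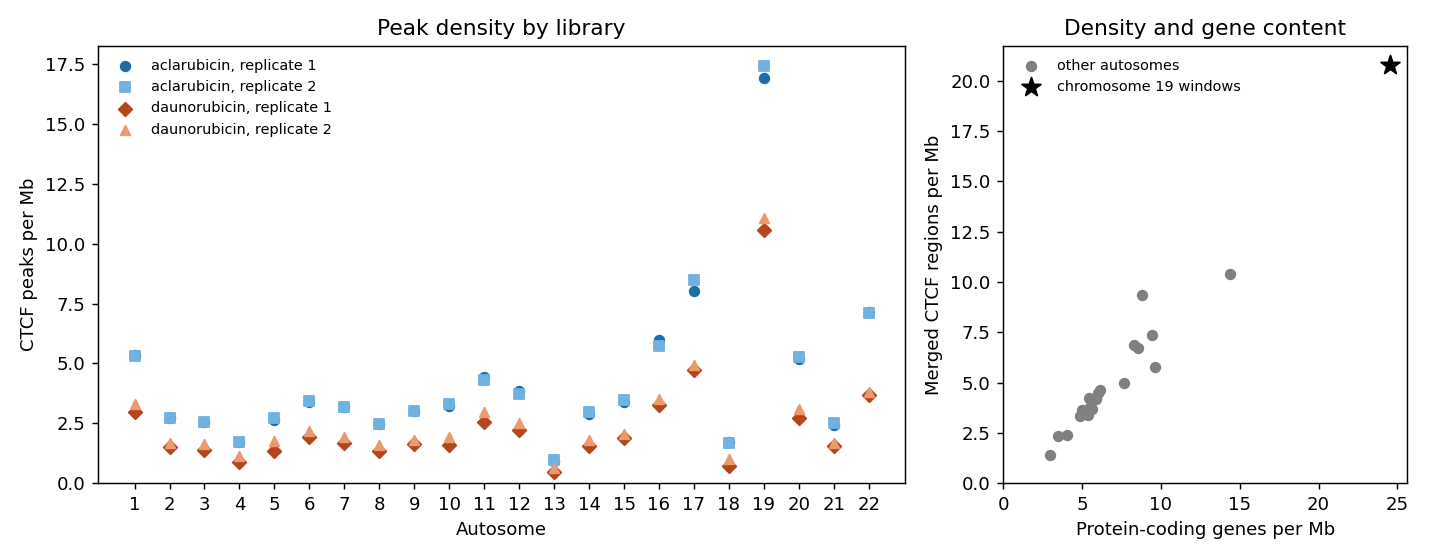
Left, CTCF peaks per Mb on each autosome (the windows only for chromosome 19), 1 point per library. Right, merged CTCF regions per Mb against protein-coding genes per Mb, 1 point per autosome, with chromosome 19 as a star. All 4 libraries peak on chromosome 19, at 16.9 and 17.4 peaks per Mb under aclarubicin and 10.6 and 11.1 under daunorubicin.

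The aclarubicin lists held more chromosome 19 peaks than the daunorubicin lists. They averaged 720.5 ± 14.8 peaks (SD, n = 2), where the daunorubicin lists averaged 454.5 ± 14.8 (SD, n = 2), a 1.59-fold difference. The drugs did not overlap, and the log2 difference of 0.66 compares with a pooled SD between replicates of 0.04 (exact permutation p = 0.333; 95% interval 0.50 to 0.83). On the other autosomes the log2 difference was 0.78, with 9628 and 9661 peaks under aclarubicin and 5277 and 5995 under daunorubicin. Cutting each list to its top 5886 peaks by −log10 p removes the overall difference in number by construction, and then left log2 differences of 0.07 on chromosome 19 and -0.0031 on the other autosomes.

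The share of autosomal peaks that lay in the windows was 6.87% (6.40% to 7.37%) and 7.03% (6.56% to 7.54%) under aclarubicin. It was 7.76% (7.10% to 8.48%) and 7.20% (6.59% to 7.85%) under daunorubicin. Both daunorubicin shares were above both aclarubicin shares, but the difference in the log2 ratio of chromosome 19 to other peaks was only -0.11, against a pooled SD of 0.06 (exact permutation p = 0.333). The 95% interval of that difference ran from -0.38 to 0.15. In lists of equal length the difference turned to 0.07. No shift of peaks towards or away from chromosome 19 was therefore established.

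Both arms showed the difference between drugs. The short arm window held 329 and 344 peaks under aclarubicin and 207 and 208 under daunorubicin. The long arm window held 381 and 387 peaks under aclarubicin and 237 and 257 under daunorubicin. The log2 difference was 0.70 on the short arm and 0.64 on the long arm, and their contrast of 0.06 was no larger than its pooled SD of 0.06 (exact permutation p = 0.667; 95% interval -0.19 to 0.31). Merged regions were somewhat denser on the short arm, at 23.1 per Mb against 19.1 per Mb.

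Density varied along the chromosome. In 41 complete windows of 1 Mb, the number of merged regions ranged from 0 to 41, with a median of 21. The densest was chr19:3000001-4000000 with 41 regions, called as 36 and 34 peaks under aclarubicin and 20 and 22 under daunorubicin. Next were chr19:50000001-51000000 with 37 regions (32 and 34 peaks, then 19 and 19), and chr19:47000001-48000000 with 36 (32 and 36 peaks, then 22 and 23). The sparsest was chr19:37000001-38000000, where no library had a peak. Next came chr19:9000001-10000000 and chr19:53000001-54000000 with 2 regions each. Both aclarubicin libraries had more peaks than both daunorubicin libraries in 36 of the 41 windows, and the reverse occurred in 0. The same count is not given for the other autosomes, where the aclarubicin lists were longer as well, so it does not set chromosome 19 apart. Genes at these positions were not analysed here, for want of an annotation in GRCh37.

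Members lay close to one another. In the aclarubicin lists, 32.7% and 33.4% of chromosome 19 peaks had another peak of their list within 10 kb, against 19.8% and 20.3% on the other autosomes. In the daunorubicin lists the shares were 22.5% and 23.0%, against 13.4% and 13.3%. The difference was 11.2 ± 2.09 points (SD, n = 4 libraries), positive in 4 of 4 libraries (exact sign-flip permutation p = 0.125), on a chromosome where distances are shorter in general. At a distance of 5 kb it was 3.34 points, and at 20 kb 23.4 points. Among merged regions, the median distance to the nearest region was 13182.5 bp on chromosome 19 and 28679 bp elsewhere, and 3.44% against 20.3% had no other region within 100 kb.

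Linking regions whose summits were at most 10 kb apart gave 533 lone regions, 119 pairs, 24 runs of 3, 6 runs of 4 and 1 run of 5. The run of 5 covered chr19:4557362-4580629, with 4 and 2 of its regions called under aclarubicin and 2 and 2 under daunorubicin. Of the 6 runs of 4, the first along the chromosome covered chr19:7917816-7937654, with 3 and 3 regions called under aclarubicin and 2 and 1 under daunorubicin. The next covered chr19:8643575-8659194, where 3 of 4 regions were called in all 4 libraries and the other one in both aclarubicin libraries only.

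Chromosome 19 peaks were wider and carried more fragments, yet had no higher fold over background than peaks elsewhere. The median width was 402.5 and 414 bp under aclarubicin and 337.5 and 349 bp under daunorubicin, against 366, 380, 318 and 326 bp on the other autosomes. The excess was 36.5 and 34.0 bp under aclarubicin and 19.5 and 23.0 bp under daunorubicin, positive in 4 of 4 libraries (exact sign-flip permutation p = 0.125). The excess under aclarubicin was the larger one by 14 bp, several times the pooled SD between replicates of 2.15 bp (exact permutation p = 0.333; 95% interval 4.75 to 23.3 bp). Peaks were wider under aclarubicin on the other autosomes too. On the log2 ratio of median widths, the difference between drugs was 0.038, and its 95% interval from -0.0013 to 0.078 reached both signs. In lists of equal length the difference between drugs in bp was 3.75 bp.

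The fold of a peak compares its fragments with a background, λ, the number of fragments that the peak caller set as background there. Both were recovered from the deposited fold and −log10 p. The sources used here name no control, so λ may have been taken from the same library as the fragments. The median chromosome 19 peak had 71 and 72 fragments over its summit under aclarubicin, against 43 and 46 on the other autosomes. Under daunorubicin it had 46 and 47 fragments, against 35 and 33. The background differed in the same direction. The median λ at chromosome 19 peaks was 9.70 and 10.3 fragments under aclarubicin, against 5.31 and 5.77 elsewhere. Under daunorubicin it was 6.19 and 5.48 fragments, against 4.11 and 3.42. In each library the chromosome 19 median λ was the highest of the 22 autosomes.

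The log2 ratio of median λ between chromosome 19 and the other autosomes came to 0.87 and 0.84 in the aclarubicin libraries and 0.59 and 0.68 in the daunorubicin libraries (exact sign-flip permutation p = 0.125 for the 4 libraries). The excess of background on chromosome 19 was therefore larger under aclarubicin, by 0.22 on the log2 scale, with a pooled SD of 0.05 and no overlap between the drugs (exact permutation p = 0.333; 95% interval 0.01 to 0.42). This contrast is taken within each library, so a plain scaling of λ by depth cancels. The effect of depth and list length on which peaks were called does not cancel. In lists of equal length the difference between drugs was 0.09.

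Because signal and background were both higher, the 2 ways of ranking a peak differed. By fold, the median chromosome 19 peak stood at the 48.3 and 45.8 percentile of its list under aclarubicin and at 49.8 and 48.7 under daunorubicin. These were below the other autosomes by 2.09 ± 1.85 points (SD, n = 4 libraries), lower in 4 of 4 (exact sign-flip permutation p = 0.125). By −log10 p, which also grows with the number of fragments, it stood at 64.5 and 63.0 under aclarubicin and 61.3 and 63.5 under daunorubicin, 13.95 points above the other autosomes. Among the strongest 10% of autosomal peaks by fold, chromosome 19 supplied 62 of 1043 and 67 of 1050 under aclarubicin and 43 of 578 and 45 of 652 under daunorubicin. By −log10 p it supplied 136 and 137 under aclarubicin and 71 and 73 under daunorubicin. With peaks of a fold of at least 5 only, the rank by fold turned to 0.746 points above the other autosomes.

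Member peaks were found again in another library more often than peaks elsewhere. Of the chromosome 19 peaks, 89.0% of aclarubicin replicate 1 and 86.7% of replicate 2 overlapped a peak of the other replicate, against 82.6% and 82.3% on the other autosomes. For the daunorubicin replicates the shares were 89.2% and 85.2%, against 82.4% and 72.5%. The mean excess was 7.57 ± 3.52 points (SD, n = 4 libraries), positive in 4 of 4 (exact sign-flip permutation p = 0.125).

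Between drugs the pattern was similar. In a daunorubicin library, 54.0% to 56.9% of the aclarubicin peaks on chromosome 19 were overlapped, against 44.2% to 49.4% on the other autosomes. In an aclarubicin library, 86.9% to 89.0% of the daunorubicin peaks were overlapped, against 78.8% to 82.1%. The mean excess was 7.99 ± 0.947 points (SD, n = 4 libraries), positive in 4 of 4 (exact sign-flip permutation p = 0.125). The lists searched differ in length between the drugs, so shares are compared within a row of libraries, not between drugs.

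**Figure D2:**
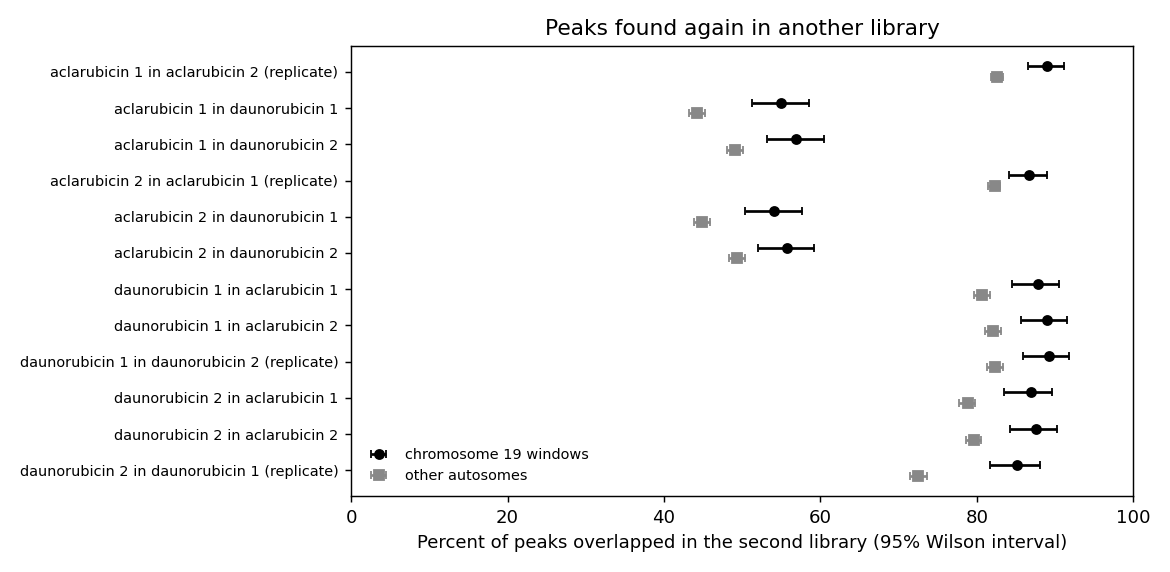
Percent of peaks of the first library that shared at least 1 bp with a peak of the second, with 95% Wilson intervals, on the chromosome 19 windows (circles) and the other autosomes (squares). The circle lies to the right of the square in each pair of libraries, by 4.46 to 12.6 points between replicates and by 6.30 to 10.7 points between drugs.

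The excess depended on how strength was held equal. Within deciles of fold, chromosome 19 peaks were overlapped in the other drug more often by 10.9 and 10.4 points in the aclarubicin lists and by 7.53 and 8.32 points in the daunorubicin lists. Within deciles of −log10 p, a comparison added after the values had been seen, the differences were -0.513 and -0.976 points in the aclarubicin lists and 3.34 and 3.08 points in the daunorubicin lists. The means for aclarubicin near 0 joined differences of opposite sign. When each aclarubicin list was divided into 3 equal classes of −log10 p, the highest class held 47.9% and 47.3% of the chromosome 19 peaks. There the difference in overlap under daunorubicin lay between 3.85 and 5.43 points. It lay between -7.02 and -0.359 points in the middle class and between -4.89 and 0.998 points in the lowest. Between replicates, the differences within deciles of −log10 p were 1.43 and 1.01 points for aclarubicin and 2.17 and 4.44 points for daunorubicin.

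The 872 member regions were divided by the libraries that called them. In all 4 libraries, 356 were called, 40.8% (37.6% to 44.1%), where 28.8% of the 12678 regions on the other autosomes were. A further 209 were called in both aclarubicin libraries and in no daunorubicin library, 24.0% (21.3% to 26.9%), close to the 23.8% on the other autosomes. Only 27 were called in both daunorubicin libraries and in no aclarubicin library, 3.10% (2.14% to 4.47%), close to 3.21%. Chromosome 19 had the highest share of regions called in all 4 libraries of the 22 autosomes, ahead of chromosome 17 at 33.5%. It was in the middle of the autosomes for both drug-specific classes. The shares of regions called in at most 1 library of each drug were 22.9% (20.3% to 25.8%) on chromosome 19 and 31.8% elsewhere.

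Of the 632 member regions called in both aclarubicin libraries, 356 (56.3%, 52.4% to 60.1%) were called in both daunorubicin libraries, 67 (10.6%) in 1 and 209 (33.1%, 29.5% to 36.8%) in none. On the other autosomes these shares were 46.0%, 15.996% and 38.0%. Of the 396 member regions called in both daunorubicin libraries, 356 (89.9%, 86.5% to 92.5%) were called in both aclarubicin libraries and 27 (6.82%) in none, against 84.0% and 9.36%. In lists of equal length, 79 of 619 member regions (1063 of 8176 elsewhere, 12.8% against 13.002%) were called in both aclarubicin libraries only and 57 (9.21%, against 11.1%) in both daunorubicin libraries only. Among peaks with a fold of at least 5, the aclarubicin class had 124 of 659 regions (18.8%, against 23.0%). Without daunorubicin replicate 1, when the remaining list alone defined the class, the daunorubicin class had 52 of 859 (6.05%, against 8.01%).

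**Figure D3:**
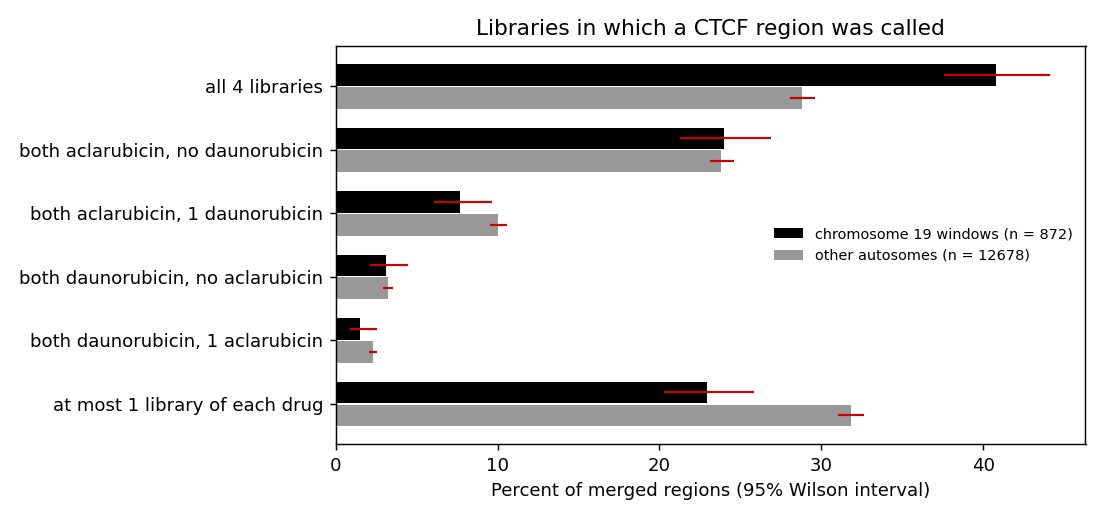
Percent of merged CTCF regions in each class of calls, on the chromosome 19 windows (black) and the other autosomes (grey), as bars with 95% Wilson intervals. Regions called in all 4 libraries made up 40.8% on chromosome 19 and 28.8% elsewhere, and the classes of both aclarubicin and of both daunorubicin libraries only had nearly the same shares.

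At the 356 member regions called in all 4 libraries, fragments over the summit were compared after division by the relative depth. That depth rests on the lowest λ of each list and not on a count of reads, and it raises the values of daunorubicin replicate 2 most. The median was 113 and 112 fragments per relative depth under aclarubicin, against 52.2 and 66.4 under daunorubicin. On the 3654 such regions of the other autosomes it was 73.0 and 73.9 under aclarubicin, against 41.1 and 51.6 under daunorubicin. Before scaling, the chromosome 19 medians were 113, 116.5, 52 and 54 fragments. The daunorubicin libraries were below both aclarubicin libraries in each set, and the excess of chromosome 19 over the other autosomes was smaller in them.

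The ratio of daunorubicin to aclarubicin fragments was taken region by region, as a geometric mean over libraries. Its median was 0.532 on chromosome 19 and 0.625 on the other autosomes, a difference of -0.23 on the log2 scale in which the depths cancel. In the 4 pairs of libraries of different drugs the difference lay between -0.26 and -0.23. Between replicates of a drug it was -0.01 for aclarubicin and -0.01 for daunorubicin. Chromosome 19 had the lowest median ratio of the 22 autosomes, followed by chromosome 16 at 0.546, and chromosome 13 had the highest, at 0.814. Across the 22 autosomes, the log2 ratio was lower where protein-coding genes per Mb were higher, with a Spearman's rho of -0.836, and of -0.812 without chromosome 19. The relation between gene density and this ratio is a description over chromosomes of the same 4 libraries, and its cause was not tested.

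Fragments at 300 of the 356 regions (84.3%, 80.1% to 87.7%) were lower in both daunorubicin than in both aclarubicin libraries, where 70.4% of the shared regions on the other autosomes were. They were higher in both daunorubicin libraries at 14 (3.93%, 2.36% to 6.49%), against 7.5%. The geometric-mean ratio was below 0.5 at 160 of the 356 (44.9%), against 29.6% elsewhere, and above 1 at 25 (7.02%), against 15.4%. These counts depend on the depths. Without scaling, an alternative added after the values had been seen, fragments were lower in both daunorubicin libraries at 324 of the 356 (91.0%, against 79.99% elsewhere) and higher at 5 (1.40%, against 5.17%). Regions enter this comparison only if all 4 libraries called them, so those that fell below the threshold under daunorubicin are not in it.

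The background was lower as well. The ratio of daunorubicin to aclarubicin λ at the same regions had a median of 0.594 on chromosome 19 and 0.699 elsewhere, again a log2 difference of -0.23. With no control named, λ may hold fragments of the same and of neighbouring peaks. Whether it was independent of the fragments over the summit was not tested. It was below 1 at 356 of the 356 member regions, with a range from 0.356 to 0.962, and at 86.6% of the regions on the other autosomes. In 346 (97.2%, 94.9% to 98.5%) λ was lower in both daunorubicin than in both aclarubicin libraries, where 78.5% of the regions elsewhere were. The reverse held in 0 of the 356, against 7.74% elsewhere. The fold over background did not set chromosome 19 apart. The median ratio of daunorubicin to aclarubicin fold was 0.822 on chromosome 19 and 0.824 elsewhere, a log2 difference of -0.0044 with the sign changing between pairs of libraries, from -0.02 to 0.02. The fold was lower in both daunorubicin libraries at 60.1% of the member regions (54.9% to 65.1%), against 56.7%, and higher at 14.6% (11.3% to 18.7%), against 13.2%.

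**Figure D4:**
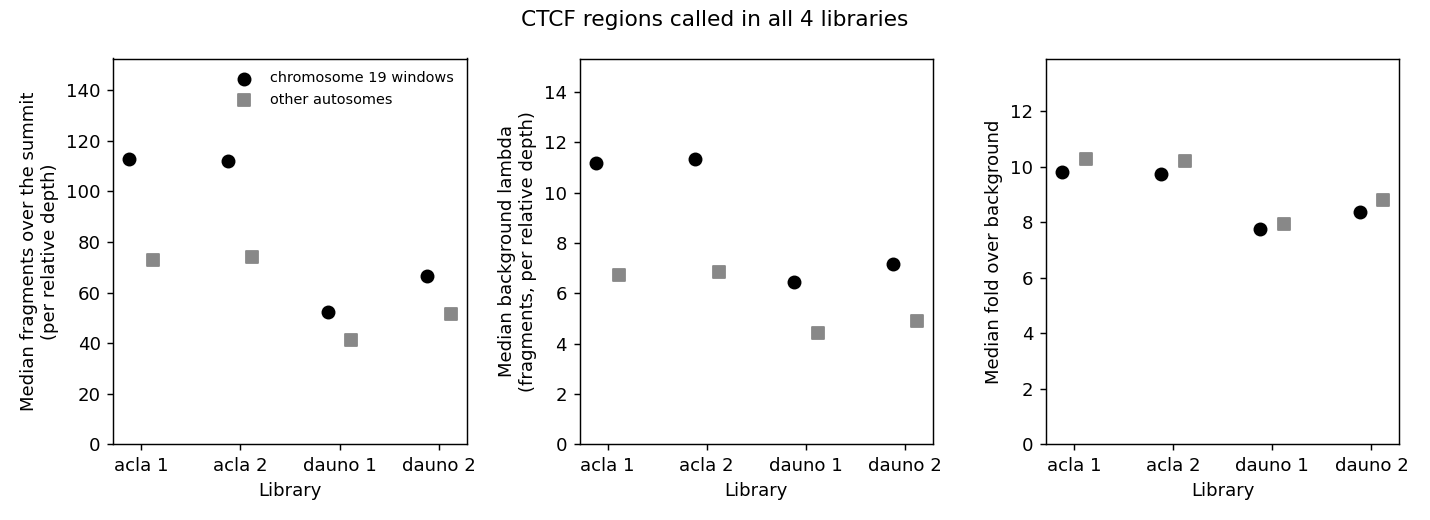
Median fragments over the summit, median background λ (both per relative depth) and median fold over background in each library, at regions called in all 4 libraries, on the chromosome 19 windows (circles, 356 regions) and the other autosomes (squares, 3654 regions). The gap between circles and squares is wider in the aclarubicin libraries for fragments and λ, and small in each library for fold.

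**Figure D5:**
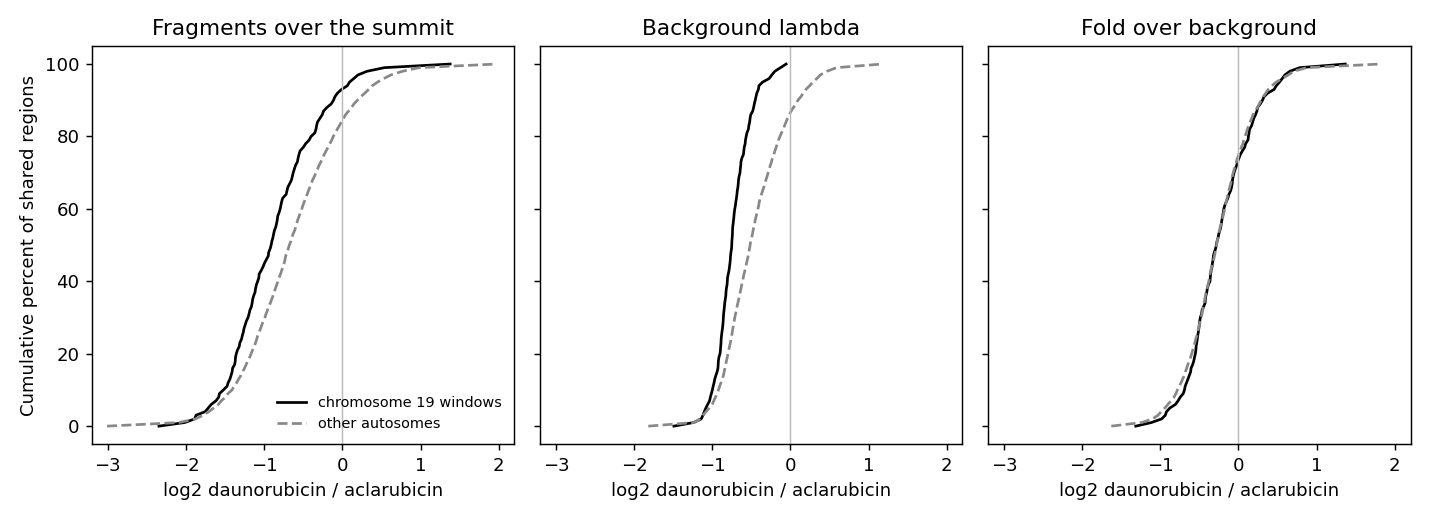
Cumulative percent of the shared regions against the log2 ratio of daunorubicin to aclarubicin for fragments, background λ and fold, on the chromosome 19 windows (solid) and the other autosomes (dashed). The chromosome 19 curve lies to the left for fragments and λ, each by 0.23 at the median, and on the other curve for fold.

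The lower fragment ratio was seen in each bin of strength, but its size depended on the ranking. In 4 equal bins of all shared regions by mean fold percentile, from the lowest to the highest, the median ratio was 0.577, 0.477, 0.514 and 0.524 on chromosome 19 and 0.653, 0.619, 0.622 and 0.616 elsewhere. Bins of fold do not hold the number of fragments equal. In 4 equal bins of −log10 p the ratio was 0.795, 0.533, 0.494 and 0.496 on chromosome 19 and 0.826, 0.625, 0.573 and 0.540 elsewhere. The log2 differences in these bins were -0.06, -0.23, -0.21 and -0.12, the smallest in the lowest bin. Along the chromosome, 37 of the 38 windows of 1 Mb with at least 3 shared regions had a median ratio below 1. The same count is not given for the other autosomes, where the median ratio over regions was 0.625. The arms had nearly the same median, 0.522 on the short and 0.535 on the long arm.

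Summits of the shared members lay close together in the 4 libraries. The median distance between summits was 11.5 bp between the aclarubicin replicates, 18 bp between the daunorubicin replicates and 14.5 to 15.0 bp between drugs. Peaks were wider under aclarubicin at 88.2% to 92.1% of the shared members, by a median of 86.0 to 102 bp over the pairs of libraries. On the other autosomes they were wider at 79.1% to 88.9%, by 63.0 to 98.0 bp.

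The member regions with the highest mean fold percentile among those called in all 4 libraries lay mostly on the long arm. The first was chr19:41168530-41169130, where the fold was 18.6 in aclarubicin replicate 1, 18.1 in replicate 2, 18.8 in daunorubicin replicate 1 and 18.004 in replicate 2. It had 307 and 317 fragments over the summit under aclarubicin and 193 and 178 under daunorubicin. Its fold was nearly level across the 4 libraries while its fragments were lower in both daunorubicin libraries.

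The second was chr19:50594000-50596262, with folds of 20.3 and 17.8 and of 15.2 and 16.7. Its peaks were 2263, 2242, 2220 and 2208 bp wide, the widest member peak in every library. The third was chr19:51172525-51173066, with 208 and 286 fragments under aclarubicin and 124 and 138 under daunorubicin. Close to the first lay chr19:41140303-41140855, which had the most fragments of any member peak in both aclarubicin lists. It had 595 and 537 fragments under aclarubicin and 151 and 164 under daunorubicin, and its folds were 23.6 and 21.9 against 14.2 and 15.1.

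These neighbours on the long arm thus differed. The depth-scaled ratio of daunorubicin to aclarubicin fragments was 0.673 at chr19:41168530-41169130 and 0.315 at chr19:41140303-41140855, and the libraries of the drugs did not overlap at either. The next region, chr19:49804444-49804964, had folds of 18.95 and 18.4 and of 15.8 and 14.05. The last of the 6, chr19:15740043-15740539, was the one on the short arm, with folds of 17.5 and 17.5 and of 12.5 and 16.5.

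A few members went against the general direction. The 4 with the highest ratio were chosen for it, and their values are a description. At chr19:33467056-33467495 the fragments were 30 and 31 under aclarubicin and 62 and 79 under daunorubicin, a depth-scaled ratio of 2.60. Its fold was 5.65 and 5.05 against 12.1 and 15.7, the 28.6 and 21.8 percentile of the aclarubicin lists and the 94.3 and 98.3 percentile of the daunorubicin lists. At chr19:2950970-2951376 the fragments were 44 and 48 against 59 and 80, a ratio of 1.69. The ratio was 1.51 at chr19:16358324-16358825 and 1.49 at chr19:11052650-11053055.

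At the other extreme, also chosen by the ratio, chr19:47986930-47987427 had 255 and 281 fragments under aclarubicin and 60 and 36 under daunorubicin, a ratio of 0.197. Its fold was 14.8 and 14.7 against 7.50 and 5.14. At chr19:13990877-13991428 the fragments were 151 and 165 against 32 and 24, a ratio of 0.199, and at chr19:8067183-8067724 they were 170 and 210 against 34 and 33, a ratio of 0.201. The remaining one, chr19:19296631-19297191, had 129 and 119 fragments against 28 and 26, a ratio of 0.247. In each of these 4 regions λ was lower as well, at a ratio between 0.438 and 0.498.

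Member regions called under aclarubicin only were mostly weak. The 209 had a median fold of 5.53 and 5.42 in the aclarubicin libraries, against 9.83 and 9.75 at the shared members. Their median percentile of fold was 27.1 and 26.2, against 38.1 and 38.1 for the same class on the other autosomes. Their median number of fragments was higher than elsewhere, at 49 and 50 against 38 and 40, on a median λ of 8.57 and 9.42 against 5.24 and 5.72. The mean percentile was above 50 in 38 of the 209 (18.2%), against 33.2% of the 3021 such regions elsewhere. Both libraries had at least 100 fragments in 9 (4.31%), against 4.20%.

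The highest of these by fold was chr19:43683677-43684146, with folds of 11.7 and 13.7 from 40 and 53 fragments. Next came chr19:43262786-43263168, with folds of 11.1 and 15.2 from 38 and 53 fragments. The next 2 rested on more fragments. At chr19:51286814-51287280 there were 131 and 152 fragments with −log10 q of 87.0 and 105, and at chr19:56151356-56151901 there were 157 and 139 with −log10 q of 108 and 88.5. The last of the 5, chr19:32715502-32715932, had 28 and 47 fragments. No daunorubicin library called these regions, so they have no daunorubicin value. Member peaks with as few as 14 fragments were called in both daunorubicin lists. The number needed for a call rises with λ, so 14 fragments is no bound on the daunorubicin level at these regions.

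The 27 members called under daunorubicin only had median folds of 5.83 and 6.83, below the 7.75 and 8.36 of the shared members in the same libraries. The highest was chr19:6863568-6863927, with folds of 10.1 and 10.3 from 45 and 37 fragments. It was followed by chr19:35464077-35464427, with folds of 9.35 and 10.9, and chr19:11784303-11784663, with folds of 9.05 and 8.95. The other 2 were chr19:16513864-16514197, with 52 and 53 fragments, and chr19:45160492-45160852, with 50 and 41.

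Most drug-specific members had no shared region within 10 kb, but the share that did was higher than on the other autosomes. Of the aclarubicin-only members, 35 of 209 (16.7%, 12.3% to 22.4%) had a region called in all 4 libraries within 10 kb, against 7.85% (6.94% to 8.86%) on the other autosomes. The median distance to such a region was 31.6 kb on chromosome 19 and 106 kb elsewhere. Of the daunorubicin-only members, 6 of 27 (22.2%, 10.6% to 40.8%) had one within 10 kb, against 8.60%. The share was similar for members called in both aclarubicin libraries and 1 daunorubicin library, at 11 of 67 (16.4%, 9.42% to 27.1%), against 8.03%. Shared regions are denser on chromosome 19, and no test separated the class from that density.

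At the edges of the windows, the first member past 2.0 Mb was chr19:2019504-2020075, called in all 4 libraries with folds of 10.6, 10.9, 7.61 and 8.35. The region just outside, chr19:1945923-1946246, was called in daunorubicin replicate 2 only, with a fold of 5.87. Below 19.6 Mb the last member was chr19:19497207-19497477, called in aclarubicin replicate 2 only with a fold of 2.39. Just past it lay chr19:19601120-19601672, called in all 4 libraries with folds of 9.62, 10.3, 8.02 and 7.34. The regions on either side of 32.7 Mb, chr19:32532750-32533104 outside and chr19:32715502-32715932 inside, were both aclarubicin-only. Those on either side of 57.1 Mb, chr19:56904428-56904919 inside and chr19:57156648-57156924 outside, were each called in a single aclarubicin library.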

How the data were processed

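Each library had 1 deposited peak list in the 10 columns of the narrowPeak format, without header. The submitters' processing notes name GRCh37 (hg19), Bowtie2, Picard and bedtools. The peak caller, its threshold and any control are not given in the sources used here. By the format, the authors deposited a fold (a ratio over background at the summit), a −log10 p and a −log10 q per peak, and a score derived from the latter. They were used within lists. Fragments k and background λ were solved from fold = (k + 1)/(λ + 1) and a Poisson −log10 p. This formula is an assumption. For 100% of peaks in each list, k came out whole to within 0.02. Relative depth was the lowest λ over the shortest width of a list. The method was tested on simulated data made with the same formula, which checks the calculation and not the formula.

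A shared peak overlapped by at least 1 bp. Regions were merged intervals of the 4 lists, placed by the summit of their strongest peak. Percentiles were over autosomal peaks. Chromosome lengths and centromere gaps of GRCh37 were entered by hand, and 0 peaks ended past a chromosome. Libraries were compared with exact permutation tests. Named regions were the 6 highest by mean fold percentile called in all 4 libraries, the 4 highest and 4 lowest by fragment ratio, the 5 highest of each drug-specific class, the 3 runs with most regions (ties by position), the 3 densest and 3 sparsest 1 Mb windows, and those beside the window edges. The members and lists were chosen with earlier results of these data known. No genome of the files' build was used here, so genes, motifs and base composition of the planned comparison, and sequences, were not analysed here. Python 3.11.15, numpy 2.4.6, pandas 2.3.3, scipy 1.17.1, statsmodels 0.14.6, matplotlib 3.10.9 and bedtools 2.31.1 (test of overlaps) were used. Coordinates are 1-based.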

Additional observations from a re-analysis of the deposited data

How the results depend on the processing

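Of 199 values recomputed under alternatives for 17 results, 194 kept their direction and 5 changed sign. Some of the 194 could not have changed sign. The region classes are counts, with 10 alternatives for each class. Scaling by the median of shared regions leaves the contrast in fragment ratio unchanged by construction. Pairing same-numbered libraries does the same for the differences it was used on. Of the 194, 160 stayed within 1.5 times the value reported and 34 moved by more. The exact tests used here cannot pass 0.05, so this says nothing about significance. With peaks of a fold of at least 5, the rank of chromosome 19 by fold turned to 0.746 points, the contrast of the arms to -0.000100, and 124 members were aclarubicin only. Ranking by −log10 p gave 13.95 points, and a difference between drugs of 1.21 points. In lists of equal length, the difference in the chromosome 19 share turned to 0.0748, with 79 aclarubicin-only and 57 daunorubicin-only members. The log2 contrast in fragment ratio was -0.29 against the median of the other autosomes, -0.26 within deciles of fold, -0.20 within deciles of −log10 p and -0.00436 with fold in place of fragments. Both of the latter alternatives were added with the values known, and the cause was not tested. Leaving out each library gave -0.29 to -0.24 for that contrast and 33 to 52 daunorubicin-only members, the highest without daunorubicin replicate 1, when 1 list defines the class. With same-numbered libraries paired, the differences in peak number (0.66), share (-0.11) and arms (0.06) were unchanged by construction. Exact sign flips over the pairs cannot give a p below 0.5. Same-numbered libraries did not deviate together (correlation -0.08 over 4010 shared regions). The planned motif and base composition results were not run. Levels below the calling threshold of a list are not measured.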

Other observations

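Promoters were looked at by chromosome only, since RefSeq's promoter sequences are in GRCh38.p14 and could not be placed beside the peaks. Over 1917 promoters of 300 bases on chromosome 19 and 31808 on the other autosomes, the median GC content was 62.7% and 58.3%, with a median of 19 and 13 CpG per promoter. These values describe the reference and not the peaks.

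Outside the windows, chromosome 19 held 96 and 108 peaks under aclarubicin and 59 and 60 under daunorubicin.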
